A study of Homo sapiens with 66 samples.

Results

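F-36P is an erythroid leukaemia cell line (AML M6), and its response to etoposide was examined by RNA-Seq. Etoposide is a topoisomerase II poison, which traps the enzyme on cut DNA. The 6 libraries of this line, of 66 in the series of 11 AML cell lines, were chosen by their labels and form 2 groups of 3 replicates, which are biological by the general statement of the study's methods. The labels do not say how the cultures were kept apart. The untreated group received media only and the etoposide group received the drug for 24 hours at the IC50 of F-36P, which was the highest concentration given to any line and lay above the range of the dose-response assay. RNA of each replicate came from the pooled cells of 3 wells, and F-36P cells of both groups were grown with granulocyte-macrophage colony stimulating factor (GM-CSF). All values refer to a single cell line, so they describe F-36P and not erythroid leukaemia in general.

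Erythroid cells are built by a small set of DNA-binding proteins, among them GATA1, TAL1 and KLF1, which switch on globin, haem synthesis and red cell membrane genes. Double-strand breaks activate p53 target genes in cells that have p53, and DNA in the cytoplasm can be sensed by cGAS and STING, which leads to interferon and to the genes that interferon turns on. MYC drives ribosome production, and the SREBP proteins drive the enzymes of cholesterol synthesis.

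Reads on genes numbered between 18616941 and 20105328 in the untreated and between 18218362 and 19697773 in the etoposide libraries. At this like depth, between 20999 and 21285 genes had reads without drug and between 29738 and 30168 with etoposide. The mean difference of 8843.67 genes exceeded that of each other line, of which KASUMI-1 was next with 5307.33 and the other 9 reached at most 2131.33. Among coding genes, 4555 had no read in the 3 untreated libraries and 1996 of these had reads in all 3 etoposide libraries, while 1 of 1432 coding genes without reads after etoposide had reads in all 3 untreated libraries. A gene was called at a Benjamini-Hochberg adjusted p below 0.05 in edgeR's quasi-likelihood test and a fold change above 2. Of 15911 genes tested, 24.3% were called induced and 6.67% were called repressed, and the median log2 fold change was 0.09. Many of these genes entered the test only through their reads after etoposide. Of the 12825 genes that passed the filter on the untreated libraries alone, 10.9% were induced and 8.23% repressed, and these shares are the background for lists with many silent members. With scaling by library size alone, induced genes made up 88.3% of all calls, against 78.4% with TMM scaling. There the median over all genes moved up by 0.25 on the log2 scale. Among the 15911 genes tested, all etoposide libraries lay above all untreated libraries for 6019 and below them for 4316. Groups without overlap were thus common, and lack of overlap alone does not set a gene apart.

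The label of the line was checked against marker genes in the untreated libraries of all 11 lines. Each of the 13 erythroid markers was higher in F-36P than in the other 10 lines. GATA1 stood at 250 ± 32.6 CPM (read counts scaled to a common library size, mean ± SD, n = 3) and did not exceed 14.5 CPM elsewhere, and the fetal globin gene HBG2 stood at 5354 ± 1115 CPM against at most 0.106 CPM. None of the 9 granulocyte and monocyte markers was highest in F-36P. ELANE, which encodes neutrophil elastase, had no reads, and CEBPA, the granulocyte regulator, was at 0.544 CPM, although SPI1, the myeloid factor PU.1, was at 135 CPM.

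A large part of the erythroid regulators fell after etoposide. Of 20 regulators listed, 19 were tested, 11 were repressed and none was induced, with a median log2 fold change of −1.03. KLF1, which activates adult globin and red cell genes, is located on chromosome 19 (12884422 to 12887201, GRCh38). It measured 277, 254 and 201 CPM in the untreated replicates and 79.2, 99.9 and 108 CPM after etoposide. The groups did not overlap, and the log2 fold change was −1.35 (SE 0.16, adjusted p = 5.54e-05). IKZF1, the Ikaros factor, measured 176, 147 and 150 CPM before and 40.0, 39.2 and 44.5 CPM after, a log2 change of −1.93. BCL11A, which keeps the fetal globin genes low, went from 20.3, 23.0 and 18.4 CPM to 6.42, 6.36 and 7.10 CPM (−1.63). In both genes each treated library lay far under each untreated library. The partners of the GATA1 and TAL1 complex fell as well, with log2 fold changes of −1.53 for the bridging protein LMO2, −1.33 for LDB1 and −1.27 for ZFPM1, which binds GATA1. The other members called were MYB at −1.05, SOX6 at −1.25, FOXO3 at −1.02, STAT5A at −1.03 and STAT5B at −1.47. MYB, FOXO3 and STAT5A lay close to the fold limit, and 8 members were called with scaling by library size alone. In bulk RNA, fewer cells of a type and less RNA per cell cannot be told apart.

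The founding factors of the lineage did not pass the fold limit. GATA1 measured 275, 292 and 237 CPM before and 163, 193 and 189 CPM after etoposide. The groups did not overlap, but the log2 fold change was −0.56 (adjusted p = 0.00242), short of the fold limit. TAL1 stood at 225 ± 18.4 CPM and 206 ± 9.51 CPM, with overlapping groups and a log2 fold change of −0.13 (adjusted p = 0.329) that was 0.12 with scaling by library size alone. GFI1B, a repressor of erythroid and megakaryocytic genes, had a log2 fold change of 0.07 with overlapping groups. The summed level of the 20 regulators lay between 3484 and 3956 CPM in untreated and between 1896 and 2076 CPM in treated libraries. In the plot of erythroid genes the regulators that fell stand beside these 3 factors.

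Some products of the erythroid programme were repressed as well. Of 26 red cell membrane genes tested, 4 were repressed (15.4%, against 6.67% of all genes tested). Of all genes that passed the filter on untreated libraries alone, 8.23% were repressed. The Lutheran blood group protein BCAM was the 1 member induced, from 0.226, 0.174 and 0.334 CPM to 3.397, 3.98 and 3.09 CPM (3.79). ANK1, which encodes ankyrin that ties the spectrin skeleton to the membrane, measured 713, 629 and 617 CPM before and 190, 198 and 237 CPM after (−1.65). RHAG, the Rh-associated glycoprotein, went from 609, 780 and 815 CPM to 321, 292 and 338 CPM (−1.21). The other repressed members were EPB41, protein 4.1 of the membrane skeleton, at −1.29 and GYPC, glycophorin C, at −1.10. Without untreated replicate 3 the number repressed was 7, and with scaling by library size alone it was 2.

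Haem and iron genes followed a mixed course. Of 17 haem genes, 3 were repressed, namely CPOX (−1.15) and ABCB10 (−1.22), which act in mitochondrial haem synthesis, and the iron-sulfur protein GLRX5 (−1.04). All 17 passed the filter on untreated libraries alone. Their repressed share was 17.6%, against 8.23% of all genes there, and rests on few genes. None of the list was repressed with scaling by library size alone, and 5 were repressed without untreated replicate 3. ALAS2, the first enzyme of erythroid haem synthesis, measured 143 ± 23.3 CPM and 150 ± 5.31 CPM in overlapping groups. HMOX1, which breaks haem down, rose from 1.69, 1.16 and 1.00 CPM to 19.5, 19.8 and 26.3 CPM (4.08, adjusted p = 1.46e-06). Of 11 iron genes, TFRC and STEAP3, the transferrin receptor and the reductase of its endosome, were repressed (18.2%, against the same 8.23%). TFRC went from 812, 1246 and 1577 CPM to 412, 353 and 366 CPM (−1.69), so its untreated libraries spread widely but none reached the treated range. STEAP3 fell by 1.93 on the log2 scale.

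Of 10 globin genes tested, 2 were repressed (20%, against 8.23% of all genes that passed on untreated libraries alone, as all 10 did). These were HBG1 (−1.73) and HBQ1 (−2.002), a theta globin with at most 11.1 CPM. HBG1 and HBG2 are near-identical copies, as are HBA1 and HBA2, so the split of reads between them is uncertain. HBG2 measured 6249, 6355 and 4534 CPM before and 3407, 3827 and 3582 CPM after, without overlap, and its log2 fold change of −0.66 (adjusted p = 0.00196) lay short of the fold limit. Without untreated replicate 3, which had the lowest HBG2 level of its group, 5 globin genes were repressed, and without etoposide replicate 2, 4 were.

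The interferon response held the largest share of induced members among the lists examined. All 35 members were tested, 32 were induced and none was repressed, with a median log2 fold change of 3.00. Of the 33 that passed the filter on untreated libraries alone, 30 were induced. OAS2, a sensor of double-stranded RNA on chromosome 12 (112978395 to 113011723, GRCh38), measured 1.18, 1.28 and 2.505 CPM in untreated libraries and 319, 37.6 and 477 CPM after etoposide (7.38, SE 0.89, adjusted p = 6.86e-05). ISG15, a ubiquitin-like protein, went from 14.5, 14.4 and 14.6 CPM to 323, 103 and 695 CPM (4.69). IFIT1, which binds foreign RNA, went from 6.31, 9.63 and 12.8 CPM to 227, 45.6 and 248 CPM (4.18). All treated libraries were above all untreated libraries for these genes, and etoposide replicate 2 was the lowest of the treated libraries each time. The summed level of the list was 8235, 3577 and 10172 CPM in etoposide replicates 1 to 3, against 1423 to 1658 CPM without drug. Without etoposide replicate 2, 33 members were induced, with a median of 3.34. The reason for the lower level of this replicate was not tested.

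The list spans the pathway from sensing to effectors. IFNB1, the gene of interferon beta, had 0, 0.116 and 0.0557 CPM before and 1.37, 0.605 and 1.84 CPM after etoposide. The cytoplasmic DNA sensor CGAS went from 21.3, 20.5 and 21.4 CPM to 47.3, 40.8 and 56.6 CPM (1.19), and STING1, its adaptor, had a log2 fold change of 0.56 that lay under the fold limit (adjusted p = 9.93e-04). The RNA sensors RIGI and IFIH1 rose by log2 fold changes of 3.17 and 2.51. Of the factors that carry the interferon signal, STAT2 had a log2 fold change of 1.74 and IRF9 of 1.94. IRF7, which amplifies interferon production, went from 2.14, 2.67 and 2.34 CPM to 21.3, 14.5 and 42.8 CPM (3.46). Among effectors, MX1, a GTPase that blocks viruses, had a log2 fold change of 5.26 and OASL of 5.67. BST2 (0.74) and MX2 (0.79) were, with STING1, the members not called, and only MX2 had overlapping groups among these 3.

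Promoter windows of RefSeq (GRCh38.p14), from 250 bases before to 50 bases after each start, were searched for 2 copies of the letters GAAA spaced by 2 bases of any kind, as in the interferon element, on both strands. Of 26 members of the interferon list with a window, 16 held a match (61.5%), and 996 of all 27305 windows did (3.65%). A match is a description of the letters and does not show that a factor binds there. The windows of the 3 matching members with the largest induction and a mean of at least 10 CPM are shown to let the element be seen next to their response, with the matches in capitals. They are IFI44L (chr1:78620198-78620497, plus strand, log2 fold change 5.32), MX1 (chr21:41420308-41420607, plus strand) and ISG15 (chr1:1013247-1013546, plus strand), where the 2 matches overlap.
IFI44L: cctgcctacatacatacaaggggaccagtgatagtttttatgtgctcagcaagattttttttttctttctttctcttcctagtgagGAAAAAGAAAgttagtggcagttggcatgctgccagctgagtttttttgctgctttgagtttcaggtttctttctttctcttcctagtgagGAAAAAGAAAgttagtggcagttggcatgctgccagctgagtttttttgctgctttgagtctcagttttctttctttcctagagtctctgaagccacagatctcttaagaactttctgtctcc
MX1: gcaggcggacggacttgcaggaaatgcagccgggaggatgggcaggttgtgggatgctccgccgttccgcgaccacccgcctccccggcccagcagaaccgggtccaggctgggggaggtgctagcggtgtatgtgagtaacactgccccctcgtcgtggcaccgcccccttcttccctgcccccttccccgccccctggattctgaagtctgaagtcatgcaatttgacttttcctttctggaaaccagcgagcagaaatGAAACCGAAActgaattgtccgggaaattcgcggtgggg
ISG15: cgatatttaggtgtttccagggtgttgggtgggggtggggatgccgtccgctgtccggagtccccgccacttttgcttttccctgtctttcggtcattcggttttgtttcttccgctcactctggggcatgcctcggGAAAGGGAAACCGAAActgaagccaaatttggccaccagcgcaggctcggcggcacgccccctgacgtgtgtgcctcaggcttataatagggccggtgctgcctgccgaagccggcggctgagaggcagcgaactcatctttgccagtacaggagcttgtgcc

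A large part of the cholesterol synthesis genes rose in F-36P. Of 28 sterol and lipid synthesis genes, 12 were induced and 1 was repressed, with a median log2 fold change of 0.90. All 28 passed the filter on untreated libraries alone. HMGCS1, which makes the precursor of mevalonate and lies on chromosome 5 (43287470 to 43313512, GRCh38), measured 91.4, 135 and 181 CPM before and 339, 299 and 331 CPM after (1.25, SE 0.21, adjusted p = 4.89e-04), and its log2 fold change without untreated replicate 1 was 0.99, just short of the limit. STARD4, a sterol carrier, went from 68.4, 79.3 and 98.9 CPM to 266, 215 and 297 CPM (1.66), and MSMO1, a sterol oxidase, from 52.4, 65.5 and 70.6 CPM to 179, 159 and 201 CPM (1.51). The treated libraries lay above the untreated libraries for all 3 genes. IDI1 (1.47), MVD (1.32), EBP (1.20), SC5D (1.19) and HSD17B7 (1.34), enzymes of the same route, were also induced, as was INSIG1 (1.07), which holds back SREBP.

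The members outside the cholesterol route behaved otherwise. ACACA, the first enzyme of fatty acid synthesis, was the repressed member, from 46.1, 54.2 and 64.9 CPM to 21.3, 18.1 and 23.3 CPM (−1.40). FASN, which builds the fatty acid chain, had a log2 fold change of −0.76, and SREBF1, the lipid-type SREBP gene, of −0.82, both under the fold limit with treated libraries below untreated libraries. SREBF2, the sterol-type SREBP gene, stood at 356 ± 34.0 CPM and 351 ± 17.8 CPM. The count of induced members was 9 without untreated replicate 3 and also without etoposide replicate 3, 8 without a filter on low counts and 17 with scaling by library size alone.

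In the other 9 lines the median of the sterol list had the opposite sign. Its median log2 fold change was 0.95 in F-36P in the fit of 60 libraries and lay between −1.07 and −0.31 in the other lines. The difference between the response of F-36P and the mean response of the others was tested gene by gene in that fit. There 8.53% of 19974 genes were called above and 2.84% below the other lines. Each line received etoposide at its own IC50, and only F-36P was grown with GM-CSF. Line, concentration and growth factor thus cannot be told apart in any comparison of F-36P with the other lines. Of the 28 sterol genes, 21 were above and none was below. INSIG1 differed by 2.83 (SE 0.17, adjusted p = 2.29e-20) and had log2 fold changes between −3.62 and −1.12 in the other lines. HMGCS1 differed by 2.75, with −3.34 to −0.48 elsewhere. Neither gene had a positive log2 fold change in any of the 9 lines.

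**Figure D1:**
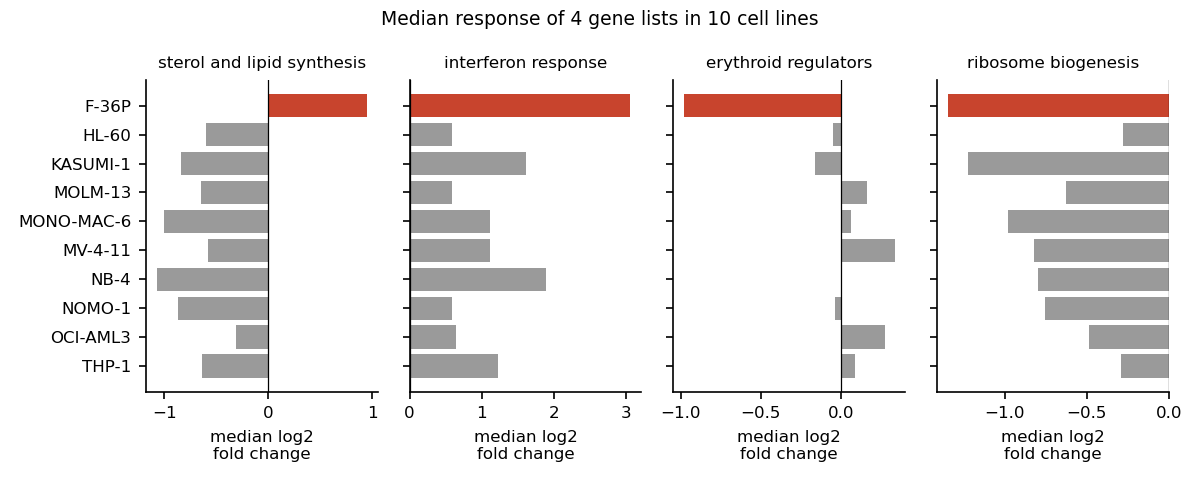
Median log2 fold change of 4 gene lists in F-36P (red) and 9 other AML lines (grey), from 1 fit of 60 libraries. The sterol list is above 0 in F-36P and below 0 in each other line, and the interferon median is 3.06 in F-36P against 0.58 to 1.89 elsewhere.

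The interferon and erythroid lists also differed from the other lines. For interferon, 21 of 35 members had a larger response in F-36P and none a smaller one. ISG15 differed by 3.70 (SE 0.34, adjusted p = 2.17e-13). Of the 20 erythroid regulators, 11 responded below the other lines and none above. LDB1, IKZF1 and FOXO3, which the other lines also express, differed by −1.35, −1.51 and −1.29. SOX6 differed by −2.30 but did not exceed 0.0474 CPM in the other untreated lines, so its comparison rests on very few reads there. For red cell membrane genes, where 10 of 26 were below the other lines, ANK1 likewise did not exceed 3.58 CPM elsewhere.

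Ribosome biogenesis genes fell together with MYC. Of 33 genes of ribosome production, 28 were repressed and none was induced, with a median log2 fold change of −1.39. MYC itself measured 910, 833 and 792 CPM before and 50.2, 65.5 and 72.3 CPM after. NOP16, a nucleolar protein on chromosome 5 (176383946 to 176388927, GRCh38), went from 69.8, 78.2 and 65.7 CPM to 13.1, 14.6 and 12.8 CPM (−2.40, SE 0.13, adjusted p = 1.39e-06). BOP1, needed to process ribosomal RNA, went from 377, 352 and 289 CPM to 62.0, 86.4 and 79.0 CPM (−2.16). The RNA polymerase I subunits POLR1A and POLR1B fell by 1.56 and 1.82 on the log2 scale. The abundant nucleolar proteins NCL and NPM1 went from means of 1768 ± 437 and 2031 ± 695 CPM to 620 ± 57.0 and 736 ± 121 CPM. Untreated replicate 1 was the lowest untreated library for both genes and still lay above all treated libraries. The count repressed was 25 with scaling by library size alone and 31 without untreated replicate 1. Of the 33 genes, 4 responded below the other lines (NOP16, BOP1, PPAN and MYBBP1A), where the list median lay between −1.22 and −0.28.

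The E-box letters CACGTG, to which MYC can bind, were present in 9 of the 28 ribosome biogenesis windows found (32.1%) and in 7.43% of all 27305 windows. The windows of the 2 matching members with the largest repression are shown with the E-box in capitals. They are MYBBP1A (chr17:4555335-4555634, minus strand, −2.15), a nucleolar protein, and UTP20 (chr12:101279855-101280154, plus strand, −2.002), which processes ribosomal RNA.
MYBBP1A: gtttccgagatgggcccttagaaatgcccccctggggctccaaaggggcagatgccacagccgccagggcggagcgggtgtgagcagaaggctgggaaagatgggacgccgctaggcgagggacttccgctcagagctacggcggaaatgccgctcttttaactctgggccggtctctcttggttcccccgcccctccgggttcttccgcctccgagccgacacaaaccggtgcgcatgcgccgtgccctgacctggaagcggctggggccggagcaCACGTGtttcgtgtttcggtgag
UTP20: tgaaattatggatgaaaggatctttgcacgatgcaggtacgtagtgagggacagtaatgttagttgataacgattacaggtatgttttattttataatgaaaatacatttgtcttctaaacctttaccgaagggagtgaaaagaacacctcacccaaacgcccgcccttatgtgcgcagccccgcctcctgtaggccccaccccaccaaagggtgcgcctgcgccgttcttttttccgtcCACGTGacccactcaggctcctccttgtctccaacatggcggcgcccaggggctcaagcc

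By the same search, the letters AGATAA of the GATA element were present in 2 of 17 windows of erythroid regulators (11.8%), against 10.5% of all windows, and neither of the 2 genes, LYL1 and TAL1, was called. The sterol element TCACNCCAC was present in 1 of 20 sterol windows, that of SREBF2, and in 1.15% of all windows.

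Of 24 genes of the p53 damage response that were tested, 9 were induced and none was repressed, and 7 of 22 were induced among those that passed on untreated libraries alone. CDKN1A, the cell cycle inhibitor p21 on chromosome 6 (36676460 to 36687337, GRCh38), went from 7.55, 7.36 and 10.3 CPM to 132, 137 and 176 CPM (4.14, SE 0.19, adjusted p = 5.77e-07). TP53INP1, a p53 cofactor, went from 17.1, 15.3 and 17.9 CPM to 65.3, 61.1 and 88.3 CPM (2.09). SESN2 (1.46), BTG2 (1.52), TP53I3 (1.69), FAS (3.63), PLK3 (1.11), TIGAR (1.50) and DDB2 (1.30), a DNA repair gene, were the other members induced. MDM2, the p53 ubiquitin ligase, measured 89.4 ± 2.32 CPM and 76.9 ± 2.72 CPM (−0.22, adjusted p = 0.0973). The death genes BAX and BBC3 had log2 fold changes of −0.15 and 0.25 (adjusted p = 0.298 and 0.127). In the test of the difference, 1 of 26 members, FAS, responded above the other lines and none below at the 2-fold limit. The median difference of the list was −0.24 on the log2 scale, against 0.13 over all genes tested there.

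Genes of the drug's targets and of break repair showed few calls. Of 30 tested, 2 were induced and 2 repressed (6.67% each). All 30 passed the filter on untreated libraries alone, where 10.9% of all genes were induced and 8.23% repressed. The repressed share was thus near that of all genes. TOP2A, the main target of etoposide, measured 80.7, 124 and 230 CPM before and 121, 123 and 87.2 CPM after, with overlapping groups (−0.39, adjusted p = 0.306). TOP2B measured 97.7, 155 and 257 CPM before and 103, 102 and 64.5 CPM after (−0.92), and the gene was called repressed at −1.24 without untreated replicate 1. The wide untreated groups leave room for changes that were not detectable here. TDP1, which frees trapped topoisomerase I from DNA, fell from 52.5, 52.1 and 52.5 CPM to 27.4, 22.7 and 26.1 CPM (−1.04). PRKDC, the kinase of end joining, fell by 1.21 on the log2 scale. The drug exporters ABCB1 and ABCG2 rose, ABCB1 from 3.27, 5.16 and 8.24 CPM to 23.7, 21.6 and 24.9 CPM (2.07) and ABCG2 by a log2 fold change of 1.74. Without untreated replicate 1, 6 genes of this list were repressed, and without untreated replicate 2, 4 were, while none was with scaling by library size alone.

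The cell cycle lists moved little at S phase and in part at mitosis. Of 37 genes of replication licensing and S phase, 2 were induced (5.41%, against 24.3% of all genes tested) and none repressed. CCNE2, cyclin E2, went from 5.81, 7.13 and 9.46 CPM to 44.1, 39.9 and 28.6 CPM (2.33). Of 41 genes of G2 and mitosis, 8 were repressed and 1, UBE2C, was induced. The repressed share was 19.5%, against 8.23% of all genes that passed on untreated libraries alone, as all 41 did. CDC20, the activator of the anaphase complex, went from 196, 178 and 151 CPM to 51.8, 63.0 and 68.9 CPM (−1.52), PLK1, a mitotic kinase, fell by 1.37 and CCNB1, cyclin B1, by 1.22 on the log2 scale. CDK1 and MKI67, a marker of cycling cells, had log2 fold changes of 0.24 and 0.11. The number repressed was 13 without untreated replicate 1 and 5 with scaling by library size alone. CDK6, a kinase of G1, went from 328, 431 and 445 CPM to 123, 110 and 89.0 CPM (−1.90).

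The integrated stress response, which halts translation and restores amino acid supply, held 11 induced and no repressed genes of 23, and 10 of 22 among those that passed on untreated libraries alone. ATF3, a stress factor, went from 3.95, 5.10 and 4.23 CPM to 54.6, 50.4 and 52.6 CPM (3.57). DDIT3, the CHOP factor, went from 22.5, 32.9 and 26.2 CPM to 88.4, 99.8 and 83.8 CPM (1.74). ASNS, asparagine synthetase, had a log2 fold change of 1.33, CTH, which makes cysteine, of 2.03, and GDF15, a secreted stress hormone, of 3.67. NUPR1, a small stress protein, went from 0.507, 0.754 and 0.390 CPM to 15.8, 18.5 and 14.7 CPM (4.88). The treated libraries of these genes were all above the untreated ones. ATF4, the factor at the head of the pathway, which is known to be controlled at translation, had overlapping groups at 695 ± 81.2 and 632 ± 29.2 CPM. Of 22 unfolded protein response genes, 2 were induced, the chaperone DNAJB9 (1.27) and CREB3L3. This share of 9.09% lay under the 24.3% of all genes tested. Among the 21 that passed on untreated libraries alone, 1 was induced. HSPA5, the chaperone BiP, had a log2 fold change of −0.26 (adjusted p = 0.0593).

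NF-kB and immediate early genes were induced in large numbers. Of 23 NF-kB and inflammation genes tested, 17 were induced and none repressed, and 11 of 17 were induced among those that passed on untreated libraries alone. NFKB2, a subunit of the alternative pathway, went from 37.2, 34.4 and 36.5 CPM to 102, 100 and 143 CPM (1.68), and its partner RELB had a log2 fold change of 1.72. CXCL8, the chemokine of neutrophils, went from 1.30, 1.10 and 1.67 CPM to 20.6, 13.0 and 49.98 CPM (4.35), and CCL2, that of monocytes, from 0.226, 0.348 and 0.111 CPM to 7.12, 8.12 and 10.6 CPM (5.21). CXCL10, a chemokine that interferon is known to induce, went from 0.451, 0.348 and 0.668 CPM to 10.6, 1.06 and 22.4 CPM (4.51), again lowest in etoposide replicate 2. NFKB1, a subunit of the classical pathway, measured 99.6 CPM before and 56.1 CPM after, a log2 fold change of −0.83 under the fold limit. Of 29 immediate early genes tested, 22 were induced, and 16 of 23 among those that passed on untreated libraries alone. FOSB (3.89), FOS (3.28), JUN (2.30) and NR4A1 (2.97), transcription factors that respond to signals within minutes, were among them, as was SPRY4 (3.43), a brake on growth factor signalling.

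Genes of other blood lineages were among those induced. Of 31 granulocyte and monocyte genes, 22 were tested, 12 were induced and none was repressed, and 6 of 14 were induced among those that passed on untreated libraries alone. ITGAX, the integrin CD11c, went from 0.564, 0.638 and 0.668 CPM to 12.8, 12.1 and 13.6 CPM (4.35). CSF1R, the receptor of monocyte growth factor, went from 0.507, 0.290 and 0.724 CPM to 7.31, 7.26 and 7.39 CPM (3.83). Both moved from about 1 CPM or less to levels with little spread between treated libraries. CSF3R, a member already expressed, rose as well, from 45.1, 42.5 and 47.6 CPM to 142, 156 and 155 CPM (1.74). SPI1 and CD14 had overlapping groups, at log2 fold changes of −0.06 and 0.25. The summed level of the 9 markers fixed for this lineage was 372 to 392 CPM before and 610 to 657 CPM after, and ELANE had no reads in any of the 6 libraries. Of the 31 genes, 9 responded above the other lines and 1, NCF1, below, where 8.53% and 2.84% of all genes did. Among the 9, CSF1R, ITGAX, CEBPA and MPO stood under 1 CPM in untreated F-36P, so these comparisons start from few reads. CSF3R stood at 42.1 CPM. MPO was called with a log2 fold change of 0.48 in F-36P and a mean of −0.91 in the other lines.

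Of 17 megakaryocyte genes tested, 8 were induced and none repressed, and 4 of 13 were induced among those that passed on untreated libraries alone. ITGA2B, the platelet integrin, had a log2 fold change of −0.19 at 421 CPM before and 370 CPM after. MYL9, a myosin light chain, went from 1.01, 0.638 and 0.946 CPM to 13.4, 15.3 and 9.18 CPM (3.85), and THBS1, thrombospondin 1, had a log2 fold change of 3.203. Of 12 lymphoid genes tested, 6 were induced, among them PAX5, the B cell factor, from 0.113, 0.116 and 0 CPM to 4.29, 4.49 and 6.13 CPM, and 1 of 5 was induced among those that passed on untreated libraries alone. IL7R, the interleukin 7 receptor, had a log2 fold change of 3.68. Of 8 epithelial and stromal genes tested, 6 were induced and 1, CDH1, was repressed (−1.45), and 2 of 4 were induced among those that passed on untreated libraries alone. The keratin KRT8 went from 2.71, 1.86 and 2.73 CPM to 61.7, 73.4 and 84.1 CPM (4.90), and its partner KRT18 had a log2 fold change of 3.66, while the epithelial keratin KRT19 had no reads in the untreated libraries. The summed marker levels were 9.18 to 10.2 CPM before and 23.5 to 29.8 CPM after for lymphoid cells. For epithelial and stromal cells they were 66.9 to 72.3 CPM and 72.7 to 96.2 CPM. The part of other cells in these levels was not tested.

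Genes of glucose use and of cytokine signalling changed in both directions. Of 26 glucose genes, 5 were repressed (19.2%, against 6.67% of all genes tested) and 3 were induced (11.5%, against 24.3%). Among the 25 that passed on untreated libraries alone, 5 were repressed and 2 induced. The shares of all genes there were 8.23% repressed and 10.9% induced. LDHA, which makes lactate, went from 1064, 1252 and 1297 CPM to 410, 387 and 371 CPM (−1.63), ENO1, an enzyme of glycolysis, fell by 1.23 and HK1, a hexokinase, by 1.32 on the log2 scale. SLC2A3, a glucose transporter, rose from 55.1, 47.0 and 64.8 CPM to 226, 211 and 245 CPM (2.03), and PDK4, a kinase that limits glucose oxidation, had no reads before and 3.59, 4.59 and 2.75 CPM after. With scaling by library size alone, 3 were repressed and 5 induced. Of 22 cytokine signalling genes tested, 6 were induced (27.3%, near the 24.3% of all genes tested) and 4 repressed (18.2%, against 6.67%). Their median log2 fold change was 0.19. With scaling by library size alone, 7 were induced and 2 repressed. Among the 20 that passed on untreated libraries alone, 4 were induced and 4 repressed. KIT, the stem cell factor receptor, rose from 1.52, 2.09 and 2.45 CPM to 6.84, 5.55 and 5.79 CPM (1.58). IL2RA, a chain of the interleukin 2 receptor, had 1 read in all untreated libraries together and measured 1.70, 2.07 and 2.41 CPM after etoposide. STAT5B went from 465, 416 and 389 CPM to 156, 158 and 145 CPM, and the kinase PIM1 (−1.12) and the survival gene BCL2L1 (−1.25), both known STAT5 targets, fell. CSF2RB, the GM-CSF receptor's beta chain, had a log2 fold change of 0.08 with overlapping groups, as had CISH (0.21), another STAT5 target. SOCS2, also a STAT5 target, measured 75.9 ± 4.44 CPM and 139 ± 3.15 CPM, a log2 fold change of 0.87 under the fold limit.

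The largest changes by rule, among called coding genes whose mean reached 10 CPM, were as follows. FN1, the matrix protein fibronectin, went from 0.338, 0.174 and 0.501 CPM to 74.3, 55.5 and 81.7 CPM (7.67). SIGLEC1, a sialic acid receptor that interferon is known to induce, went from 0.169, 0.232 and 0.167 CPM to 22.2, 4.04 and 58.1 CPM (7.17), with etoposide replicate 2 lowest as for the interferon list. CREB3L3, a transcription factor of the liver, had 1 read in all untreated libraries together and measured 32.0, 33.2 and 29.3 CPM after etoposide. OAS2 and OASL complete the 5 inductions. After MYC, the largest repressions were ROBO2, an axon guidance receptor, from 122, 138 and 178 CPM to 19.5, 18.2 and 17.5 CPM (−2.99), CMSS1 (−2.90), the potassium channel KCNQ5 (−2.70) and the G protein subunit GNAQ (−2.70). ROBO2, CMSS1, KCNQ5 and GNAQ are each longer than 300 kb, a class in which 44.5% of genes were repressed.

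Long genes were lower after etoposide. Among 9876 coding genes whose mean reached 5 CPM, 8.36% were repressed and 8.8% induced, and among the 245 longer than 300 kb, 109 (44.5%) were repressed and 3 were induced. The median log2 fold change was −0.96 for these and −0.15 for all. Set against the mean of the untreated libraries, the median of the longest genes was −0.83, −0.93 and −0.95 in etoposide replicates 1 to 3. In the untreated replicates it was −0.19, −0.02 and 0.18, so the untreated libraries also differ by gene length, by less than the distance to any treated library. The 1563 genes from 100 to 300 kb had 14.6% repressed and a median of −0.38. The lengths run from start to end in gencode release 44, and no test was made across genes, which are not replicates.

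**Figure D2:**
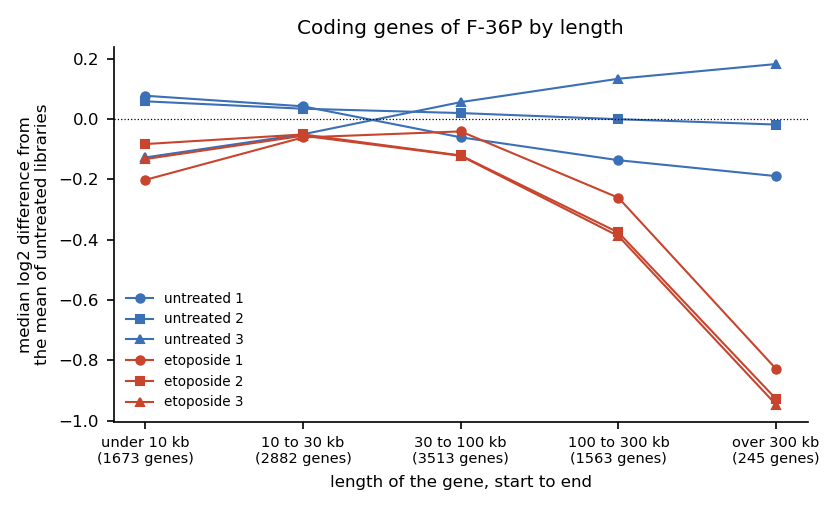
Median log2 difference of CPM (pseudocount 0.5) from the mean of the untreated libraries, for coding genes of F-36P in 5 classes of gene length. Blue lines are the 3 untreated and red lines the 3 etoposide libraries. Medians of genes longer than 300 kb lie between −0.95 and −0.83 after etoposide and between −0.19 and 0.18 without it.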

How the data were processed

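RNA-Seq libraries of 11 AML cell lines were analysed, of which the 6 of F-36P are described and 54 of 9 other lines serve for comparison. Per the submitters' notes and the methods, the authors checked reads with FastQC 0.11.5, mapped them with STAR 2.5.3a to GRCh38.p7 with gencode 25 and deposited raw counts of reads per gene, without normalization. The OCI-AML2 line, whose treated libraries the study discarded, entered only the marker check and the counts of genes with reads. Reads were present for 463 of 707 genes that are covered whole by an antisense exon, whose reads would be dropped as ambiguous if strand were not used.

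From 58037 identifiers, 45 copies on chromosome Y were left out, and 56948 of 57992 were named through gencode 44. In R 4.3.3, edgeR 4.0.16 was applied with filterByExpr (minimum count 10, minimum total 15), TMM and glmQLFTest (quasi-likelihood), and p-values were adjusted by the Benjamini-Hochberg method across the genes tested. Levels are TMM-scaled CPM, and levels in all lines were scaled over the 33 untreated libraries. Folds for genes without reads in a group use a floor of 3 reads, which covers counting error only. Python 3.11.15 with pandas 2.3.3 and matplotlib 3.10.9 was used for tables and figures. On simulated F-36P counts with 200 of 15529 genes changed 4-fold, up or down at random, the test recovered 187 with 5 false calls. The data held far more calls, most of them inductions, so these figures do not give the error rate under such a shift.

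In 38 gene lists, of which 5 were taken by symbol pattern, and in the response of F-36P against the mean of 9 lines, the named genes were key members, the 2 largest called members per list whose mean reached 1 CPM, and the 5 largest changes each way with a mean of 10 CPM or more. Further members were named where counts of calls were listed, after their values were seen. The members and lists were chosen with earlier results of these data known. Replicates of each pair differed by more than sampling noise (chi-square per degree of freedom 16.8 to 83.5). Alternatives were RLE or library size scaling, other filters, DESeq2 1.42.0, the exact test, 1 fit of 60 libraries, no fold limit, the replicate block, 2 reference lines and omission of each replicate. Some key members are given by counts or not reported here by name.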

Additional observations from a re-analysis of the deposited data

Results flagged for a closer look

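The response to etoposide differed between F-36P and the mean of the 9 other lines by a test of the difference itself. Of 19974 genes, 1704 responded above (8.53%) and 568 below the others (2.84%). Each line had its own etoposide concentration and only F-36P had GM-CSF, so these cannot be told apart from the line itself. Among coding genes whose mean reached 10 CPM in F-36P, the largest differences upward on the log2 scale were TSC22D3 with 4.78, a gene known to respond to glucocorticoids, TUBA1A with 4.70, a tubulin, NDRG1 with 4.25, SV2A with 4.08 and LOXL2 with 4.01. TSC22D3, TUBA1A and NDRG1 started from 0.585, 4.22 and 1.05 CPM in untreated F-36P cells, each under the lowest other line (13.3, 9.11 and 36.1 CPM). LOXL2, a matrix enzyme, was at most 1.88 CPM in the other untreated lines.

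The largest differences downward were ANK1 with −4.05, WNT5B with −4.05, DAPK1 with −3.89, NTN1 with −3.76 and PLXNA2 with −3.66. In each of these genes the response of F-36P was under that of all 9 other lines. ANK1, WNT5B and PLXNA2 did not exceed 3.58, 0.636 and 1.96 CPM in the other untreated lines, against 612, 204 and 257 CPM in F-36P. DAPK1, a death-associated kinase, reached 150 CPM in another line and NTN1, a guidance protein, 25.5 CPM. The lowest of the other untreated lines compared stood at 0 CPM for DAPK1 and 0.0955 CPM for NTN1. Their log2 fold changes in the other lines ran from −0.23 to 6.23 and from −1.17 to 4.23.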

How the results depend on the processing

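Of 179 genes named with values, 139 kept their direction and their side of the limit under the scaling, filter, test, fit, block and replicate alternatives in which they were tested (154 of them at 5 CPM), and 131 did so without the fold limit too, where 15 gained a call. The alternative of 2 reference lines bears only on the response difference. Induced genes numbered 7602 without a filter on low counts and 1144 at a mean of at least 5 CPM, against 3862, since the filters change the genes tested. Repressed genes numbered 600 with library size alone, 607 at 5 CPM and 3974 without a fold limit, against 1061. Genes that responded above and below the other lines numbered 930 and 323 at 5 CPM, against 1704 and 568. Leaving out 1 replicate gave 3978 to 4347 induced, 1100 to 1374 repressed, 1603 to 1672 above and 567 to 606 below. DESeq2 called 3709 induced and 1195 repressed.

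Same-numbered libraries did not deviate together (r = −0.637, 0.183 and −0.383). With 3 replicates per group the deviations from a group mean depend on each other, so this check cannot exclude pairing by number. With the replicate block 3821 genes were induced and 1035 repressed, and 1671 and 552 responded above and below the other lines.

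With library size alone, MYB, FOXO3, STAT5A, RHAG, CPOX, GYPC, ABCB10, GLRX5, TDP1, PRKDC, CCNB1, ENO1, PIM1, HSPE1 and RPS26 lost their call and MX2, NCF1 and SOCS2 gained one. At 5 CPM, MYB, FOXO3, STAT5A, CPOX, GYPC, GLRX5, TDP1, PIM1, HSPE1 and RPS26 lost it and SOCS2 gained one, in 1 fit of 60 libraries MYB, FOXO3, STAT5A, TDP1, HSPE1 and RPS26 lost it, and without a filter INSIG1, PLK3 and HEXIM2 lost it and TOP2B gained one. Without 1 library, calls were lost for FOXO3 and TDP1 (etoposide 2, −0.97 each), MYB, INSIG1 and PLK3 (etoposide 3, −0.99, 0.89 and 0.96), STAT5A and HMGCS1 (untreated 1, −0.995 and 0.99) and INSIG1 and PLK3 (untreated 3, 0.95 and 0.98). HSPE1, RPS26, HEXIM2 and MT2A also lost theirs without 1 library. Calls were gained for HBA1 and HBA2 without etoposide 2 (−1.08 and −1.03) or untreated 3 (−1.14 and −1.12), for MX2 without etoposide 2 (1.07), for NFKB1 without etoposide 3 (−1.07) and for TOP2B without etoposide 1 (−1.04), etoposide 2 (−1.03), untreated 1 (−1.24) or untreated 2 (−1.005).

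Signs turned only in genes that were not called. With library size alone the log2 fold change was 0.12 for TAL1, 0.19 for SPI1, 0.225 for SREBF2, 0.0292 for MDM2, 0.0913 for BAX, 0.11 for ATF4 and 0.0596 for ITGA2B. At 5 CPM it was 0.0278 for TAL1, 0.10 for SPI1, 0.14 for SREBF2, 0.0016 for BAX and 0.0188 for ATF4. Without a filter it was −0.0486 for GFI1B, −0.0449 for ALAS2 and −0.0294 for CSF2RB, and in 1 fit of 60 libraries 0.0224 for SREBF2. Leaving out 1 replicate gave −0.2492 to 0.0213 for SPI1, −0.0885 to 0.1244 for GFI1B, −0.1659 to 0.1308 for ALAS2, −0.1946 to 0.0146 for SREBF2, −0.7199 to 0.0102 for TOP2A, −0.1558 to 0.3507 for MKI67, −0.0348 to 0.3736 for CD14 and −0.0203 to 0.1315 for CSF2RB. The causes were not tested.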

Other observations

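Genes that decide on cell death were called in both directions. Of 16 BCL2 family genes, 6 were induced and 1, BCL2L1, was repressed, and 3 of 13 were induced among those that passed the filter on untreated libraries alone, where 10.9% of all genes were induced. BMF, a death-promoting member, went from 2.03, 1.51 and 1.95 CPM to 23.9, 22.1 and 24.9 CPM (log2 fold change 3.69), and PMAIP1, the NOXA protein, from 33.7, 38.3 and 41.4 CPM to 101, 74.8 and 92.9 CPM (1.24). BCL2A1, a protective member, had a log2 fold change of 2.77. The protective member MCL1 measured 301 ± 8.70 CPM and 393 ± 35.7 CPM (0.39, under the fold limit). Of 23 death receptor and caspase genes tested, 5 were induced (21.7%, against 24.3% of all genes tested) and 1, the receptor TNFRSF25, was repressed (−1.56). The decoy receptor TNFRSF10D had a log2 fold change of 1.70, and APAF1, which assembles the apoptosome, had a log2 fold change of 1.40. The number induced was 3 without untreated replicate 1 and without etoposide replicate 1.

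Of 29 autophagy and lysosome genes tested, 7 were induced (24.1%, near the 24.3% of all genes tested) and none was repressed. GABARAPL1, a protein of the autophagosome membrane, went from 12.2, 11.02 and 9.46 CPM to 72.8, 68.1 and 77.6 CPM (2.74), and OPTN, a cargo receptor, had a log2 fold change of 1.89. Of 25 replication-dependent histone genes tested, 6 were repressed (24%, against 6.67% of all genes tested) and 1 was induced. H2BC12 went from 84.7, 87.7 and 98.0 CPM to 18.6, 19.0 and 22.5 CPM (−2.17), and H2AC6 had a log2 fold change of −2.03. The number repressed was 10 without untreated replicate 1, 10 without untreated replicate 2 and 13 without etoposide replicate 3. Of 15 stem and progenitor genes, 3 were repressed and 4 induced (26.7%, near the 24.3% of all genes), and 1 of 12 was induced among those that passed on untreated libraries alone. The repressed genes were ETV6 (−1.91), a blood stem cell factor, SOX4 (−1.87) and the RNA-binding protein MSI2 (−1.65).

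In the remaining lists the share of induced members lay on both sides of the 24.3% of all genes tested. It was above for metallothionein genes with 3 of 6, among them MT1E (1.89) and MT2A (1.18), and 1 of 4 was induced among those that passed on untreated libraries alone. It was also above for cyclins and CDK inhibitors, where 5 of 16 were induced and 1 repressed. All 16 of these passed on untreated libraries alone. For mast cell and eosinophil genes it was near that of all genes tested, with 2 of 7 induced (28.6%), among them IL5RA (1.21). Of the 6 that passed on untreated libraries alone, 1 was induced. The share was below 24.3% for oxidative stress genes, with 3 of 16 induced (18.75%), among them OSGIN1 (2.64). All 16 passed on untreated libraries alone, where 10.9% of all genes were induced, so against that background their share was above. For the MYC network it was below 24.3%, with 2 of 13 induced, among them MYCL (3.54), and 1 repressed. Of the 11 network genes that passed on untreated libraries alone, 0 were induced.

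Few calls were made in the other lists. Of 13 heat shock genes, HSPE1 was repressed (−1.02), and of 19 genes of transcription elongation and bromodomain proteins AFF1 was repressed (−1.28) and HEXIM2 induced (1.10). Of 78 ribosomal proteins, RPL17 (−1.39) and RPS26 (−1.01) were repressed, and of 13 mitochondrially encoded genes MT-ND6 (−1.29) was. Of 435 zinc finger genes, 41 were induced and 11 repressed, with the largest inductions for ZNF703 (3.52) and ZNF469 (3.32). PSMB9, an immunoproteasome subunit, was the 1 of 38 proteasome genes induced, with a log2 fold change of 3.10. Without untreated replicate 1, 6 heat shock genes were repressed. HSPE1 and RPS26 were not called without untreated replicate 2 (−0.96 and −0.97), RPS26 not without etoposide replicate 1 or 3 (−0.99 each), HEXIM2 not without untreated replicate 3 (0.80) and MT2A not without etoposide replicate 3 (0.88).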
